A study of Mus musculus with 4 samples.

Results

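The 10 genes described here are immediate early genes and Myc: the AP-1 genes Fos, Fosb, Fosl1, Jun and Junb, the zinc finger genes Egr1 and Egr2, the immediate early response genes Ier2 and Ier3, and Myc. They were taken by symbol from the annotation of an Agilent whole mouse genome array, where they have 14 of 41174 non-control probes and 50 of 43379 spots, under 10 of 27745 gene names. Total RNA of mouse embryonic fibroblasts of the C57BL/6J strain was hybridised to 4 arrays in 2 colours, 2 for cells labelled KO (genotype field Lats2-/-) and 2 for cells labelled WT (Lats2+/+). On every array a low density culture, grown for 48 h and subconfluent, was set against a high density culture, grown for 3 to 5 days, in serum-containing medium, and the dyes were exchanged between the 2 arrays of a genotype. Culture time therefore changed together with density and the 2 cannot be told apart. For these 4 arrays the sources used here do not give the embryos' age, which or how many embryos or lines stand behind each genotype, or separate RNA preparations for the 2 arrays of a genotype, so each genotype and density was counted as 1 replicate, no p-value was computed, and the spread between the 2 arrays measured technical error. The labels write LAT2 in the source name where the genotype field has Lats2.

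Immediate early genes are transcribed within minutes of a growth signal, without new protein synthesis, and their mRNAs are short-lived. Serum response factor bound to CArG boxes, its ETS-family partners driven by ERK, and CREB-family factors act at many of their promoters. FOS and JUN family proteins pair through leucine zippers to form AP-1, EGR proteins bind GC-rich sites, and MYC pairs with MAX at E-boxes of growth genes. In fibroblasts these genes are known for their answer to fresh serum, and contact between cells is known to hold back their division.

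All values are log2 intensities after background correction and normalization, or differences of them. A ratio was called when its mean over both arrays (for genotype differences, over both dyes) was at least 1 in size, which is 2-fold, with the same sign in both. Tested here means that a probe passed the detection filter, and no statistical test was made. Over all probes tested, an array deviated from the mean of its pair with an SD between 0.0987 and 0.148 in the 5 comparisons. Of all spots, 52.8% to 67.7% were well above background in a channel, none was saturated, and 107 to 224 were flagged on an array. All 10 fibroblast markers were well above background in all 8 channels, while Pecam1, Cdh5, Emcn and Tie1 of endothelium, Ptprc and Adgre1 of macrophages, and Epcam, Cdh1 and Krt8 of epithelium were above it in none. Of the other markers of these lists, Cd68 and Cd14 of macrophages and Krt14 of epithelium were above it in all 8 channels. At 3 of the 4 Lats2 probes the arrays labelled KO gave more signal than the arrays labelled WT, by 1.19 to 1.39 at low and 0.91 to 1.49 at high density, and at the other probe they gave less, by differences of -0.63 at low and -1.26 at high density. Its relative Lats1 gave 1.47 more at low density and was at least 2.09-fold higher at high density, where it was not well above background on either WT array. Genotypes are therefore named as labelled. Whether these probes lie in the deleted part is not given in the sources used here. The 2 WT arrays shared a slide and a scan, and the KO arrays lay on 2 other slides scanned 7 months apart, so that slide and genotype cannot be told apart. In such bulk samples fewer cells of a type and less RNA per cell cannot be told apart either.

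Egr2 was called lower at high density in cells labelled WT and called higher in cells labelled KO, and no other of the 9 genes tested in both was called with opposite signs. Ier3 (called lower in WT, and 0.52 in KO, not called) and Fos (0.61 in WT and -0.96 in KO, neither called) also had opposite signs. Fosl1, Jun, Junb, Egr1, Ier2 and Myc had the same sign in both genotypes at their brightest probes. A second, dim Ier2 probe had small changes of opposite sign, 0.11 in WT and -0.12 in KO. Junb and Myc were called lower at high density in both. Fosl1 was called lower and Egr1 higher in KO, and their changes in WT, -0.86 and 0.78, were not called. At low density Junb, Egr1, Egr2, Ier2 and Ier3 were called lower in cells labelled KO than in cells labelled WT, where 7.05% of all probes tested were called lower, and Fos was called higher, where 6.87% were.

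**Figure D1:**
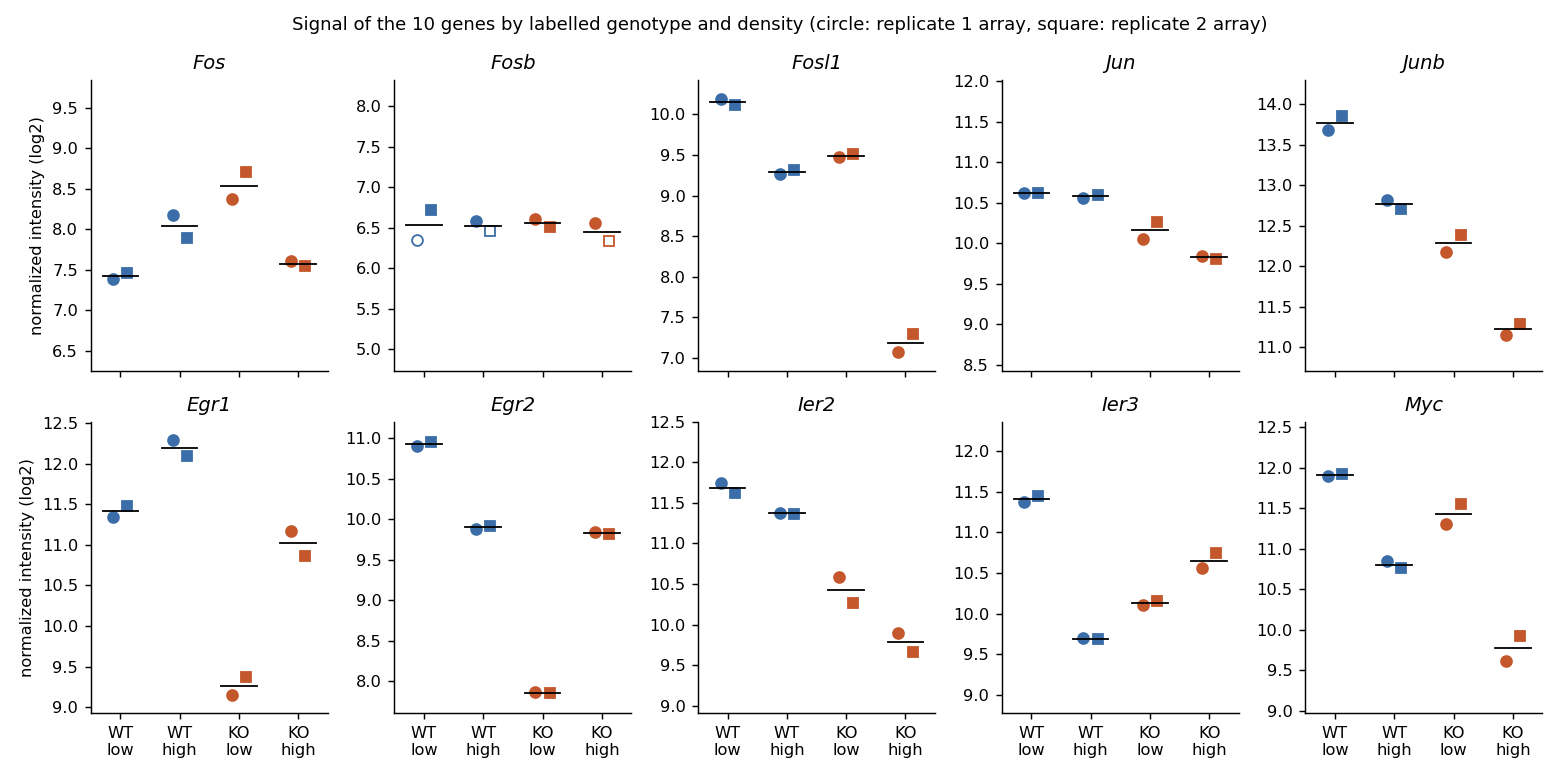
Normalized log2 intensity of the 10 genes (vertical axis, brightest probe of each gene, all panels with about the same span) at low and high density in cells labelled WT (blue) and KO (orange). Circles are the replicate 1 arrays, squares the replicate 2 arrays, open symbols channels not well above background, and lines the means of 2 arrays. Egr2 fell from 10.93 to 9.90 in WT and rose from 7.86 to 9.84 in KO.

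In cells labelled WT, 4 of the 9 genes tested (Junb, Egr2, Ier3 and Myc) were called, all lower at high density, where 13.3% of 22591 probes were called in either direction and 5.72% were called lower. The median of the 9 was -0.86 against 0.01 for all probes. In cells labelled KO, 5 of the 10 genes were called, Egr1 and Egr2 higher and Fosl1, Junb and Myc lower, where 9.62% of 23596 probes were called, 5.9% higher and 3.73% lower. The median of the 10 was -0.49 against 0.01 for all probes.

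**Figure D2:**
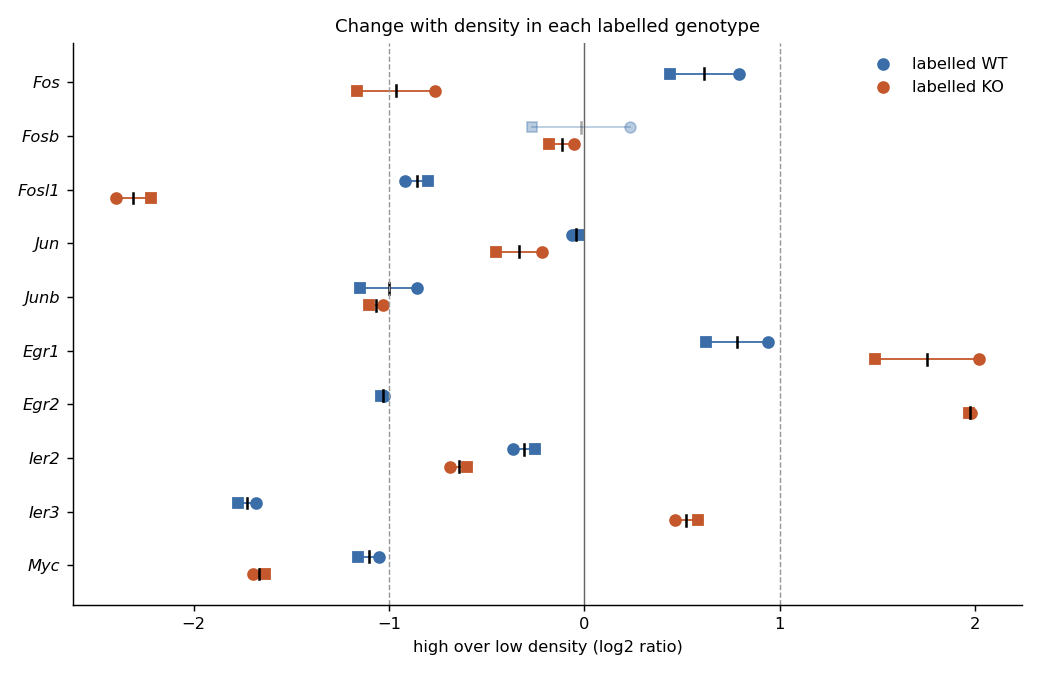
Log2 ratio of high over low density for each gene (horizontal axis) in cells labelled WT (blue) and KO (orange). Circles and squares are the replicate 1 and replicate 2 arrays, black ticks their means, dashed lines the 2-fold limits, and pale symbols a gene below the detection filter. Fos, Egr2 and Ier3 lie on opposite sides of 0 in the 2 genotypes.

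Fos encodes the founding member of the FOS family and was read by 10 spots of 1 probe (mm8 chr12:86366053-86366112). Its level in cells labelled WT was 7.39 and 7.46 on the 2 arrays at low density and 8.18 and 7.89 at high density. In cells labelled KO it was 8.37 and 8.70 at low density and 7.61 and 7.54 at high density. Low density KO cells thus had the highest level and low density WT cells the lowest, and no 2 conditions overlapped. The probe was dim, down to 7.39, though well above background in all 8 channels. Low density WT lay only 0.16 below high density KO. The change with density was 0.79 and 0.44 in WT (mean 0.61) and -0.76 and -1.16 in KO (mean -0.96), neither of them called. The KO change was called under 5 other treatments of the signal and was -1.37 from the scanner software's processed signals, which carry no offset. The deposited series matrix, 1 of the 5, nearly repeats these processed signals. With KO replicate 2 alone it was -1.16. Cells labelled KO had 2.17-fold more Fos signal at low density (differences 0.99 and 1.25, called) and less at high density (-0.57 and -0.35, mean -0.46, not called). Without the replicate 1 or the replicate 2 arrays the low density difference was 1.25 or 0.99, the latter just short of 2-fold.

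The 250 bases before the RefSeq start of Fos (GRCm38.p6 chr12:85473640-85473889, plus strand) are shown because Fos and Egr2, 2 genes of the same serum response, moved in opposite ways here. Capitals mark TGACG, the core of the CREB-family site, at 129 and 66 bases before the start and the TATAAA box at 33 bases.
Fos: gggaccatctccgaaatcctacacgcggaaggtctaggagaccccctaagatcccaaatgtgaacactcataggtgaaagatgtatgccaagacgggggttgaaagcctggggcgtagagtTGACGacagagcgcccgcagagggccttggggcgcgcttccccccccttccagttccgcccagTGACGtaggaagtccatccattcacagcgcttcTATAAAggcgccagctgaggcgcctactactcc
TGACG on either strand occurs in 17.8% and TATAAA in 12.4% of the same 250 bases before 32851 RefSeq starts. No CArG box, no AP-1 site (TGANTCA, in 6.75% of windows on either strand) and no E-box (CACGTG, in 6.02%) was matched in these bases of Fos. Bases farther upstream were not searched.

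Fosl1 encodes FRA-1, a FOS family member that accumulates late in the serum response and is itself an AP-1 target. Its level was 10.19 and 10.12 in low density and 9.27 and 9.32 in high density WT cells, and 9.47 and 9.51 in low density and 7.07 and 7.29 in high density KO cells. High density KO cells stood far below the other 3 conditions, and no 2 conditions overlapped. The gene was 4.96-fold lower at high density in KO (-2.40 and -2.22, called) and 1.81-fold lower in WT (-0.92 and -0.80, mean -0.86, not called). At high density it was 4.33-fold lower in cells labelled KO than in cells labelled WT (-2.20 and -2.03, called), and at low density 1.59-fold lower (-0.72 and -0.61, not called). The WT change was called with median centring (-1.01) and from the processed signals (-1.02).

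Fosb encodes a further FOS family member, and its single spot was well above background in 5 of 8 channels, with levels between 6.33 and 6.72. It was not tested for density in WT, for genotype at high density or for the difference of the density effects. Its density change in KO was -0.11, its difference at low density 0.03, and neither was called.

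Jun encodes the main partner of the FOS proteins and was read by 10 spots (mm8 chr4:94541191-94541250). It gave 10.62 and 10.62 at low and 10.56 and 10.59 at high density in WT, and 10.06 and 10.26 at low and 9.84 and 9.81 at high density in KO. Every KO value was below every WT value. The differences between genotypes were -0.46 at low and -0.75 at high density, neither called, and the changes with density were -0.04 in WT and -0.33 in KO. Jun was not called in any of the 5 comparisons.

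Junb encodes a JUN family member that can also hold back JUN activity, and has 2 probes that share 22 bases of chr8 (mm8). The brighter one (chr8:87867087-87867146) gave 13.68 and 13.86 at low and 12.82 and 12.71 at high density in WT, and 12.18 and 12.39 at low and 11.15 and 11.29 at high density in KO. The 4 conditions did not overlap and every KO value lay below every WT value. Junb was lower at high density by -0.86 and -1.15 in WT, a mean of -1.002 that only just passed 2-fold, and by -1.03 and -1.10 in KO (mean -1.07). The WT call was lost without WT replicate 2 (-0.86), with an offset of 0 (-0.98), from the processed signals or the series matrix (-0.985 in each) and for the mean of both probes (-0.997). Cells labelled KO had 2.79-fold less Junb signal at low and 2.92-fold less at high density (means -1.48 and -1.54, both called). The other probe gave -0.99 in WT and -0.97 in KO for density, neither called and with arrays as far apart as -0.48 and -1.46 in KO, and -1.28 and -1.26 for genotype, both called.

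Egr1 encodes the best known EGR factor. Its level was 11.35 and 11.48 at low and 12.29 and 12.10 at high density in WT, and 9.15 and 9.37 at low and 11.18 and 10.86 at high density in KO. High density values were above low density values in both genotypes, and all KO values were below all WT values. The change with density was 3.38-fold in KO (2.02 and 1.49, mean 1.76, called) and 1.72-fold in WT (0.94 and 0.62, mean 0.78, not called). Cells labelled KO had 4.44-fold less Egr1 signal at low density (-2.20 and -2.11, called) and 2.26-fold less at high density (-1.11 and -1.24, called).

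Egr2, a paralog of Egr1 also known for its part in myelination, was read by 10 spots (mm8 chr10:66937367-66937426). In WT its level was 10.91 and 10.96 at low density and 9.88 and 9.92 at high density. In KO it was 7.87 and 7.85 at low density and 9.85 and 9.82 at high density. Low density KO cells were far below the other 3 conditions, and high density cells of the 2 genotypes lay close together without overlapping. The change with density was -1.02 and -1.04 in WT, 2.04-fold lower, and 1.98 and 1.97 in KO, 3.94-fold higher, both called. At low density the KO cells had 8.42-fold less Egr2 signal (-3.04 and -3.11, called), and at high density the difference was -0.07 (-0.03 and -0.10, not called).

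The 250 bases before 1 of the 5 RefSeq starts of Egr2 (GRCm38.p6 chr10:67537619-67537868, plus strand) are shown because Egr2 had the largest difference between genotypes of the 10 genes at low density. Capitals mark a CArG box at 72 bases before the start, TGACG at 111 bases and its reverse complement CGTCA at 55 bases.
Egr2: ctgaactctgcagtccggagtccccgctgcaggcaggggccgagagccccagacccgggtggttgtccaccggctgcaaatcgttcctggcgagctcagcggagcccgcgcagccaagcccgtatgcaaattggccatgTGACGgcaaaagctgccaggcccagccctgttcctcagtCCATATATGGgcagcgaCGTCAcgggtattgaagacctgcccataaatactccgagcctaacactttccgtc
The same CArG box lies in the overlapping windows of 3 of the 5 Egr2 starts, a different one lies before another start, and 1.47% of the windows of all 32851 starts hold one on either strand. Promoter sequence was matched for 6 of the 10 genes, Fos, Fosb, Jun, Junb, Egr2 and Ier3, and of these only Egr2 had a CArG box in the window. Bases outside the windows were not searched, so a CArG box farther upstream of Fos or another gene would not be seen. The EGR site GCGGGGGCG, found in 2.57% of windows, was matched before Fosb, and the full CREB-family site TGACGTCA, which contains TGACG and is found in 1.55%, before none of the 6. These matches describe letters in the windows and no binding was measured.

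**Figure D3:**
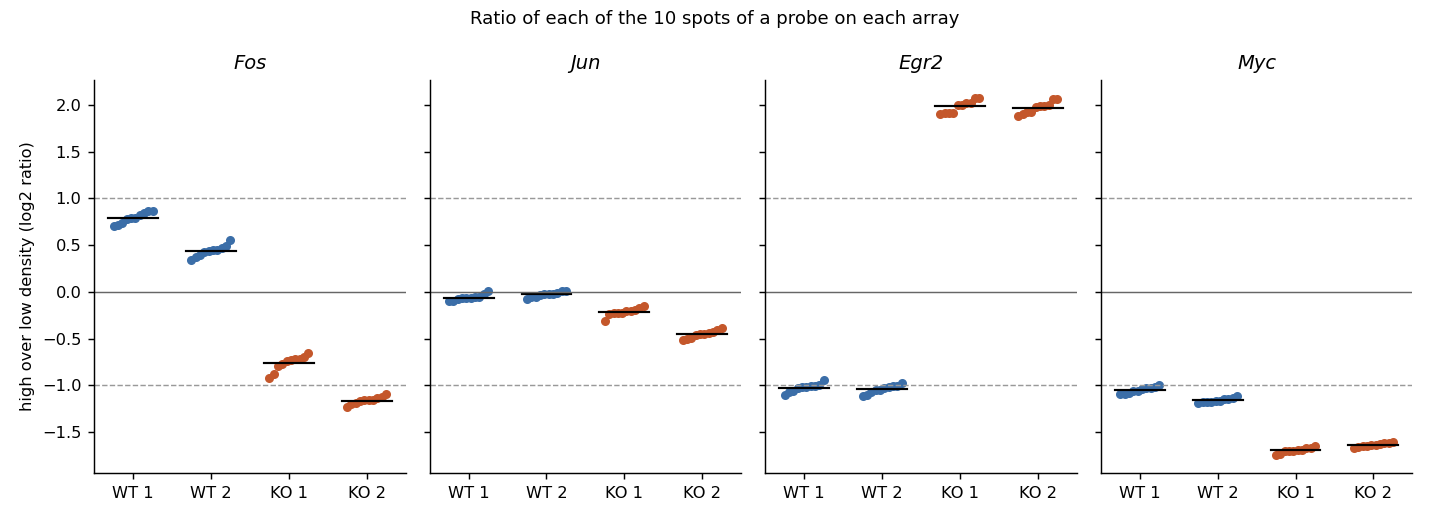
Log2 ratio of high over low density (vertical axis) for each of the 10 spots of the probes of Fos, Jun, Egr2 and Myc on the arrays WT 1, WT 2, KO 1 and KO 2. Points are spots in order of size, lines their means, and dashed lines the 2-fold limits. The 10 Egr2 spots run from -1.11 to -0.94 on the WT arrays and from 1.88 to 2.08 on the KO arrays.

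The genes with 10 spots show how little the spots of an array added to the error. The SD of the 10 ratios on an array lay between 0.021 for Myc on KO replicate 2 and 0.083 for Fos on KO replicate 1. For Fos the spots ran from 0.34 to 0.87 on the WT arrays and from -1.24 to -0.65 on the KO arrays, without overlap. The 2 dye orientations of Fos differed by more than the spots of either array, and those of Egr2 did not. Every probe of the 10 genes without 10 spots had 1 spot on each array, where the spread of spots could not be measured.

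Ier2 encodes a nuclear protein of the immediate early response. Its brighter probe gave 11.74 and 11.62 at low and 11.38 and 11.37 at high density in WT, and 10.58 and 10.26 at low and 9.90 and 9.66 at high density in KO. All KO values lay below all WT values, by means of -1.26 at low and -1.60 at high density, both called. The changes with density, -0.31 in WT and -0.64 in KO, were not called. A second, dim Ier2 probe lay between 6.51 and 7.09 in the 8 channels and was called in no comparison. Its density change was opposite in direction to that of the brighter probe in WT (mean 0.11), while both probes fell in KO (mean -0.12 for the dim one). For genotype the dim probe gave -0.21 at low and -0.44 at high density, and the mean of both probes at low density was -0.74. The array annotation places only 35 bases of the brighter probe on the genome (mm8 chr8:87549656-87549690).

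Ier3 encodes IEX-1, known for its part in survival and ERK signalling. In WT its level was 11.38 and 11.45 at low density and 9.70 and 9.68 at high density. In KO it was 10.10 and 10.16 at low density and 10.57 and 10.74 at high density. The 2 genotypes changed places, with WT above KO at low density and below it at high density. Ier3 was 3.31-fold lower at high density in WT (-1.68 and -1.77, called) and 1.44-fold higher in KO (0.46 and 0.58, not called). Cells labelled KO had 2.44-fold less signal at low density (mean -1.29, called) and 1.95-fold more at high density (0.87 and 1.06, mean 0.96, not called). The high density difference lay near the threshold and was called at 1.26 without normalization between arrays, at 1.06 in the replicate 2 arrays alone, at 1.03 after quantile normalization of single channels, at 1.02 with an offset of 0 and at 1.004 from the processed signals.

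The window before the RefSeq start of Ier3 (GRCm38.p6 chr17:35821463-35821712, plus strand) is shown beside those of Fos and Egr2, the other 2 genes whose brightest probe changed with density in opposite directions in the 2 genotypes. It has no capitals, since none of the 7 motifs searched was matched in it.
Ier3: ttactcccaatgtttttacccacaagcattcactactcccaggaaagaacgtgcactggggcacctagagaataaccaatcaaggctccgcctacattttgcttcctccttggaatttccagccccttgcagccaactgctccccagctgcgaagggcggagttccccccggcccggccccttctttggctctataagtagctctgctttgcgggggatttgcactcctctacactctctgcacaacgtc

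Myc encodes the MYC transcription factor and has 3 probes on chr15 (mm8). The brightest, with 10 spots (chr15:61819627-61819687), gave 11.90 and 11.92 at low and 10.85 and 10.76 at high density in WT, and 11.31 and 11.56 at low and 9.62 and 9.92 at high density in KO. High density was below low density in both genotypes, and KO was below WT at each density. Myc was 2.15-fold lower at high density in WT (-1.05 and -1.16, called) and 3.17-fold lower in KO (-1.69 and -1.63, called). The difference between genotypes was -0.47 at low density, not called, and -1.03 at high density (-1.23 and -0.84, called), and with the replicate 2 arrays alone it was -0.84 and not called. The second probe (chr15:61819528-61819587) gave -1.14 in WT and -1.75 in KO for density, both called, and -0.94 for genotype at high density. The third probe lies upstream of both (chr15:61819036-61819095) and was dim, at 6.78 to 7.85. It gave -0.77 in WT and -0.96 in KO for density. For genotype it gave 0.23 and 0.08 at low density, higher in KO, and 0.02 and -0.09 at high density. The lower Myc signal of high density KO cells was seen at 2 of 3 probes and called at 1.

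**Figure D4:**
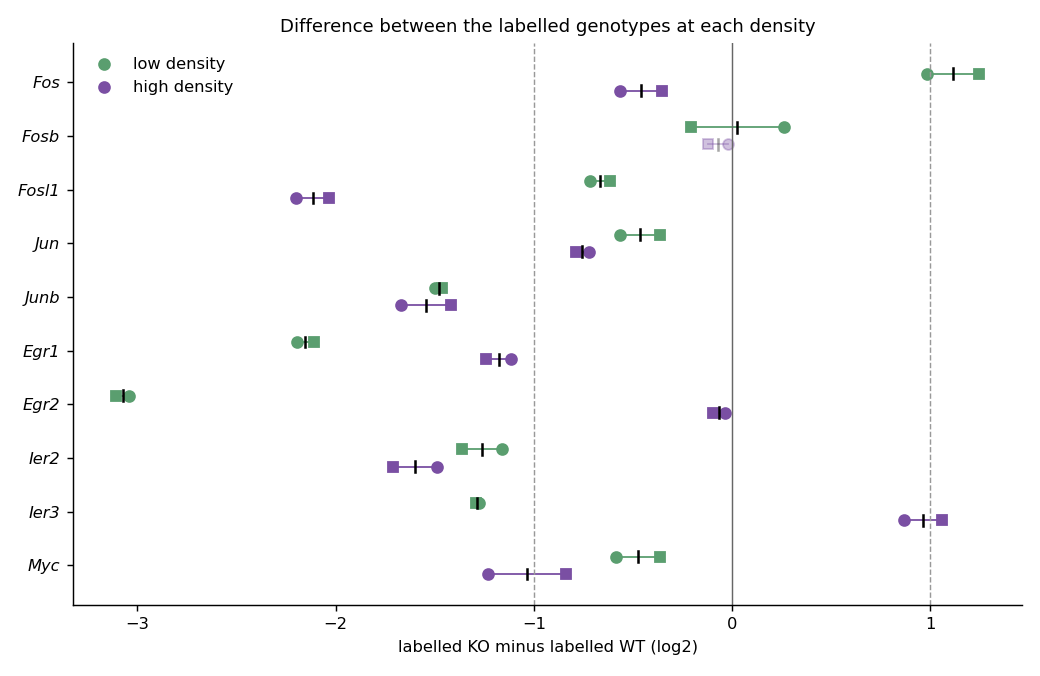
Difference between cells labelled KO and WT for each gene (horizontal axis, log2, KO minus WT) at low density (green) and high density (purple). Circles and squares are the replicate 1 and replicate 2 arrays, compared within a dye, black ticks their means, dashed lines the 2-fold limits, and pale symbols a gene below the detection filter. Egr2 differed by -3.07 at low density and by -0.07 at high density.

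Between the genotypes at low density, 6 of the 10 genes were called, Fos higher and Junb, Egr1, Egr2, Ier2 and Ier3 lower in cells labelled KO, where 13.9% of 23339 probes were called, 6.87% higher and 7.05% lower. The median of the 10 was -0.96 against 0.04 for all probes. At high density 5 of the 9 genes tested were called, all lower in KO (Fosl1, Junb, Egr1, Ier2 and Myc), where 13.0% of 23617 probes were called, 6.42% higher and 6.61% lower. The median of the 9 was -1.03 against 0.04 for all probes. Junb, Egr1 and Ier2 were called lower in KO at both densities. Without normalization between the arrays 4 genes were called at each density. There all probes had medians of 0.27 at both densities and Egr2 at high density turned to 0.20, not called. The calls of Ier2 (-0.997) and Ier3 (-0.98) at low and of Egr1 (-0.89) and Myc (-0.76) at high density were lost, and Ier3 was called higher in KO at high density (1.26).

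The change with density in KO less that in WT was called for 4 of the 9 genes tested, Egr2 (3.01) and Ier3 (2.25) higher and Fos (-1.58) and Fosl1 (-1.45) lower, where 8.0% of 21546 probes were called, 3.78% higher and 4.22% lower. Egr1, at 0.97, lay just short of the limit and was called under 4 other treatments of the signal at the same threshold and, at 1.08, in the replicate 1 arrays alone. The series matrix, 1 of the 4, nearly repeats the processed signals, another of them. Egr2 ranked at percentile 99.9 and Ier3 at 99.7 of all probes tested, Fos at 1.41 and Fosl1 at 1.79. For Jun, Junb, Ier2 and Myc the difference lay between -0.56 and -0.06. Egr2 was among the 38 probes of 21546, 0.176%, called in both genotypes with opposite sign, and 16 of these were higher in KO as Egr2 was. With no limit on size, the brightest probes of Fos, Egr2 and Ier3 had 1 sign on both WT arrays and the other on both KO arrays, as did 14.5% of all probes tested.

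**Figure D5:**
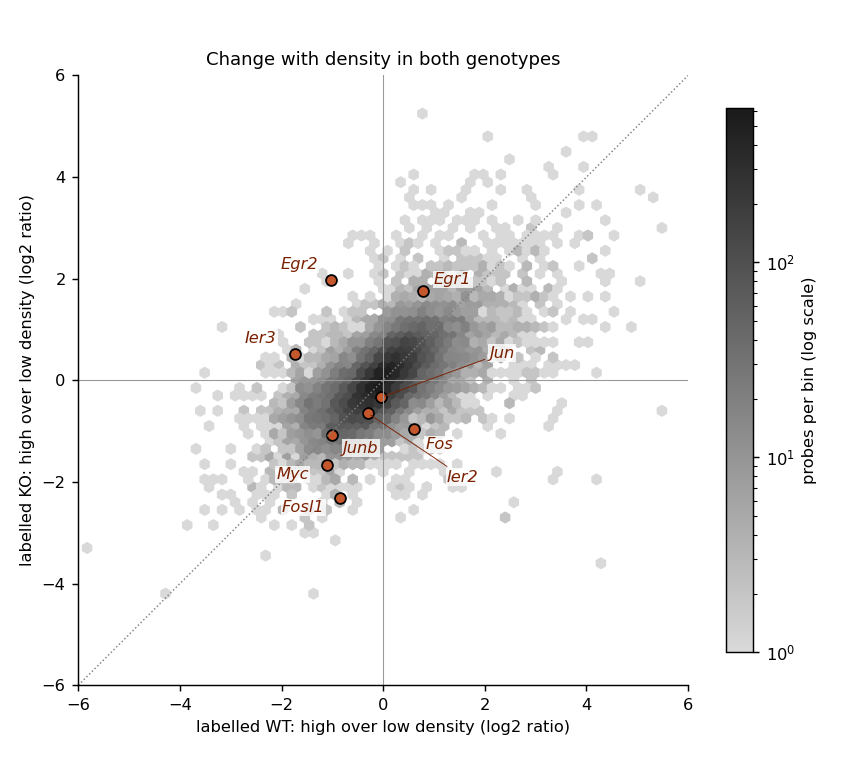
Log2 ratio of high over low density in cells labelled WT (horizontal axis) and KO (vertical axis), mean of 2 arrays, for 21546 probes (grey bins, shade on a log scale) and 9 of the 10 genes (orange). The dotted line marks equal change, and 4 probes lie outside the axes. Egr2 and Ier3 lie far above the line, and Fosl1 and Fos below it.

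The partners and regulators of these factors were described by further gene lists. Counts in these lists stand against the shares of all probes tested. For density, 7.61% were called higher and 5.72% lower in WT, and 5.9% higher and 3.73% lower in KO. For genotype, 6.87% were called higher and 7.05% lower at low density, and 6.42% and 6.61% at high density. For the difference of the density effects, 3.78% were called higher and 4.22% lower. Of 10 other bZIP partners of the FOS and JUN proteins, 9 were tested for density, and 2 were called lower in WT and 2 in KO. They were Maff, a small MAF protein (-2.74 in WT and -1.95 in KO), Mafk, another small MAF protein (-1.44 in WT), and Atf3, a stress-induced factor (-1.20 in KO). Maff was also lower in KO at low density (-1.41) and Mafk higher at both densities (1.02 and 1.63). The median of the list was -0.24 in WT. In KO it was 0.03 on replicate 1 and -0.42 on replicate 2, with no common sign.

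Of 26 other immediate early genes of serum-stimulated fibroblasts, 7 of 24 tested were called lower at high density in WT and 7 of 25 in KO, and none was called higher in either. Of all probes, 5.72% in WT and 3.73% in KO were called lower. The largest decreases were in Ptgs2, which encodes cyclooxygenase-2 (-3.46 in WT and -1.98 in KO), in Ier5 in WT (-2.004), and in the nuclear receptor gene Nr4a1 in KO (-2.14). In WT the list had a median of -0.20 and in KO of -0.22. At low density 3 were called lower in KO, with the synaptic gene Arc (-3.56) and Egr3 (-1.29) first, and the antiproliferative gene Btg2 was called higher (1.41). Egr3 was not well above background on either KO array at low density and was at least 2.39-fold lower there. At high density 5 were called lower, led by Arc (-2.41) and Klf10 (-1.91), and Gadd45b (1.80) and Klf2 (1.05) were called higher. Klf2 gave 1.63 and 0.47 in the 2 dyes. The difference of the density effects was called higher for 4, led by Ptgs2 (1.48) and Gadd45b (1.29), and lower for 3, led by Nr4a1 (-2.44) and Btg2 (-1.70).

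Among 9 genes of serum response factor, its partners and CREB-family factors, 7 were tested, and Srf itself was the 1 gene called in any comparison (-1.34 and -1.70 in WT, mean -1.52). Neither EGR corepressor, Nab1 or Nab2, was called. Of 11 ERK feedback genes 10 were on the array, and 3 were called lower and 1 higher at high density in WT and 3 of 9 tested lower in KO. The dual specificity phosphatase gene Dusp4 (-1.91 in WT and -1.58 in KO) and Etv4 (-1.47 and -1.37), an ETS factor, were lower at high density in both genotypes. Phlda1 was lower at high density in both (-1.15 and -2.41) and lower in KO at both densities (-2.92 and -4.18). Spry2, an inhibitor of receptor tyrosine kinase signalling, was higher at high density in WT (1.45) and not called in KO, and its difference of density effects was -1.88. At high density it was lower in KO than in WT (-1.28). The difference of density effects of Phlda1 was -1.26.

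Of 14 dimer partners, relatives and regulators of MYC, 2 were called higher and 3 lower at high density in WT, and 2 higher in KO. Of all probes, 7.61% were called higher and 5.72% lower in WT, and 5.9% higher in KO. Mxd1 (1.61 in WT and 1.06 in KO) and Mxd4 (1.97 in WT), which encode competitors of MYC for MAX, were called higher at high density, as was Mxi1 in KO (1.23). Mycn was called lower in WT (-2.33) and at low density in KO against WT (-2.37), and its difference of density effects was 2.48, where that of Myc was -0.56. Mxd3, another competitor of MYC, was lower at high density in WT (-1.20) and in KO at low density (-1.20), and its difference of density effects was 1.96. Mxd4 was higher in KO at low density (1.69), with a difference of density effects of -1.22, and Mycbp was lower there (-1.05). Mycl was lower in WT and was not well above background at 1 density (at least 2.78-fold). Of 15 growth genes known as MYC targets, 3 were called lower at high density in WT, with Shmt2 (-1.45) and Polr1b (-1.41) first, and 3 in KO, with Nme1 (-1.33) and Ldha (-1.30) first, and none was called higher in any comparison. Ldha gave -0.84 and -1.75 on the 2 KO arrays. In KO against WT, 2 were called lower at low density, Shmt2 (-1.14) and Polr1b (-1.01), and 2 at high density, Srm (-1.21) and Fbl (-1.10). Their medians were -0.71 in WT and -0.59 in KO for density, -0.48 at low and -0.29 at high density for genotype, and 0.01 for the difference of the density effects.

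Of 12 proliferation genes, all 12 were called lower at high density in WT (median -1.61), led by Top2a (-2.004) and Rrm2 (-1.89), and 2 in KO (median -0.50), Rrm2 (-1.48) and Mcm2 (-1.40). At low density 8 were called lower in KO (median of the 12 -1.13), led by Mki67 (-1.41) and Cdk1 (-1.21), and Rrm2 was called higher (1.24). At high density Rrm2 was called higher (1.65) and Mcm2 lower (-1.15, median of the 12 0.30). The difference of the density effects was called higher for 8 of the 12 (median 1.23), led by Top2a (1.84) and Mki67 (1.83), the direction called for Egr2 and Ier3 and opposite to that called for Fos and Fosl1. Egr1 (0.97) and Myc (-0.56), Ier2 (-0.33), Jun (-0.29) and Junb (-0.06) were not called. The part of these genes in the results above was not tested. Of the 10 fibroblast markers, 4 were called higher at high density in WT, led by Postn (5.02) and Col3a1 (4.14), and Fn1 (-1.60) and Thy1 (-1.18) lower. In KO 6 were called higher, led by Col3a1 (3.44) and Col1a2 (2.25). In cells labelled KO against WT, 3 were called higher at low density, led by Postn (5.74) and Pdgfra (4.46), and Fn1 lower (-1.30), and 5 were called higher in high density cells, led by Pdgfra (3.10) and Postn (2.66). The difference of the density effects was called higher for 4, led by Fn1 (2.63) and Col1a2 (1.69), and lower for Postn (-3.08) and Pdgfra (-1.36). Vim was called in no comparison. The sum of the 10 was 264179 to 300281 intensity units in low and 399237 to 422371 in high density WT channels, and 212087 to 279350 and 608601 to 792796 in the KO channels. The 6 macrophage markers, 2 of them well above background in all 8 channels, summed to 954 to 975 intensity units in low density and 773 to 832 in high density WT channels, and to 562 to 665 and 506 to 628 in the KO channels, and Cd14 was called lower in KO at both densities (-1.79 and -1.59). The 6 endothelial markers summed to between 332 and 427 in all 8 channels. The part of these 3 lists in the results was not tested.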

How the data were processed

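The members and gene lists were chosen with earlier results of these data known. Per the file headers, the authors scanned 4 arrays in 2 colours and read the spots with Agilent Feature Extraction 10.5.1.1. The deposited scanner files hold mean and background intensity of Cy3 and Cy5, processed signal intensity, a log10 ratio and quality flags. The deposited series matrix was checked and holds the same log10 ratio, rounded, turned to high over low density.

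Mean intensity was background corrected with normexp (offset 50) and loess normalized within arrays in limma 3.58.1 (R 4.3.3), single channels with Aquantile between arrays. The offset shrinks ratios of dim probes. Control and flagged spots had weight 0 in the loess, flagged spots were dropped, and spots of a probe were averaged. A probe counted as well above background where at least 50% of its spots were. A density change was tested for probes that passed on both arrays at either density, and a genotype difference for probes that passed in both dyes in either genotype. Genotypes were compared within a dye. A gene was named by its brightest probe, with the other probes of the 10 genes beside it. From each further list the genes called in a comparison were named, or the largest 2 in each direction where there were more. With 1 replicate a group, the methods' t-test could not be run. Tables and figures used Python 3.11.15, numpy 2.4.6, pandas 2.3.3 and matplotlib 3.10.9. The call rule was tested on simulated data. Positions are those of the array annotation (mm8) and probes were not assigned to exons. Upstream sequences are from RefSeq (GRCm38.p6). The number of arrays limits the precision.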

Additional observations from a re-analysis of the deposited data

Results flagged for a closer look

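Fos, Egr2 and Ier3 changed with density in one direction on both arrays labelled WT and in the other on both arrays labelled KO. The KO minus WT difference of the log2 changes was -1.58 for Fos, 3.01 for Egr2 and 2.25 for Ier3. All 3 differences passed the 2-fold limit on size, but with 1 replicate a genotype and density no statistical test was possible and the difference was not tested, and 14.5% of all probes tested had opposite signs in the same way.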

How the results depend on the processing

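The alternatives gave 590 values for the 10 genes. Of 305 values that belong to a call, all kept their direction, 290 stayed called and 15 fell short of the threshold. Of the others 32 were called, some only because the threshold was lowered to 1.4-fold, and 6, none of them called, changed sign. These counts hold repeats. Where genotypes were compared, leaving out the KO or the WT array of the same replicate gave the same value. The series matrix nearly repeats the processed signals. The 1.4-fold threshold and the missing filter on dim probes could not lose a call. The count of genes called was 7 in WT and 8 in KO at a 1.4-fold threshold against 4 and 5 at 2-fold. Of all probes tested, 8578 of 22591 were called in WT and 8168 of 23596 in KO at 1.4-fold, against 3012 and 2271 at 2-fold. Leaving out an array, and with it its partner of the same dye where genotypes were compared, gave 3 to 4 for density in WT, 5 to 6 in KO, 5 to 6 for genotype at low and 5 at high density, and 4 to 5 for the difference of the density effects. Other alternatives stayed within 1.5 times the counts.

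Counts over all probes rose most at 1.4-fold, to 8578 in WT from 3012, 8168 in KO from 2271, 9385 from 3249 at low density, 8870 from 3076 at high density and 6126 from 1724 for the difference. With the processed signals they were 5829, 4866, 6313, 5883 and 3150, with offset 0 4807, 3862, 5275, 4940 and 2589, and with the series matrix 5824, 4858 and 3148 for the density comparisons. Median centring moved the share of higher calls from 57.1% to 43.9% in WT and from 61.3% to 40.3% in KO. Without normalization between arrays it went from 49.3% to 72.3% at low density and from 49.3% to 70.2% at high density, with the median of all probes moving from 0.04 to 0.27 at both.

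No paired analysis was possible because each genotype and density has 1 replicate, and the replicate number marks the dye orientation, within which genotypes were already compared. Signal over background limits Fosb, which was well above it in 5 of 8 channels, and the other 13 probes were well above it in all 8.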

Other observations

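For the 8 genes well above background in all 8 channels whose 4 condition means spanned at least 1 on the log2 scale, the genes with the most similar pattern were sought among 19501 probes, by the root mean square difference of the 4 centred condition means. All of these values come from the same 4 arrays. Closest to Fos were Cstb (0.017), Eda2r (0.032) and Ak1 (0.045). Closest to Egr2 were Sbsn (0.27), Col2a1 (0.37) and Prpf19 (0.39), farther off than the nearest genes of the other 7. The measure was not scaled by the span, and Egr2 had the largest span of the 8, 3.07. Closest to Ier3 were Cenpl (0.057), Fn1 (0.11) and Incenp (0.12), and closest to Fosl1 were Epha2 (0.16), Prkg2 (0.20) and Polr3g (0.22). Plat (0.12) and Egfr (0.13) were closest to Egr1, Sox11 (0.062) and Nup50 (0.066) to Junb, Fbxo17 (0.030) and Alad (0.070) to Ier2, and Itga6 (0.092) and Dkc1 (0.093) to Myc. Jun spanned 0.80 and was not compared.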
